A study of Mus musculus with 20 samples.

Results

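Of 39 genes listed as imprinted in the mouse, 38 were matched by symbol to the 37620 Ensembl genes of the table, and 33 of these were expressed highly enough to be tested. Kcnq1ot1 was not matched, and Asb4, Calcr, Phlda2, Ddc and Peg12 fell below 1 RPKM (reads scaled to exon length and library size, here as a mean of log2 values) in each group. The rule behind the list is known imprinting in the mouse and uses no measured value, although the list was drawn up with earlier results of these data known. RNA had been sequenced from dorsal root ganglia (DRG) of 10 C57Bl6 embryos at E18.5, of which 5 were male (M1, M3, M5, M7 and M8) and 5 female (F3, F7, F8, F9 and F10). Lumbar (L4-5) and sacral (L6-S1) ganglia were taken from each embryo, which gave 4 groups of 5 libraries, 20 in all, with no treatment and no transgene. L6-S1 ganglia hold the neurons that innervate pelvic organs, and the study compared spinal levels and sexes.

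An imprinted gene is transcribed mainly from the copy inherited from 1 parent, because that copy and its partner carry different DNA methylation at a control region laid down in the egg or sperm. Many imprinted genes act on fetal growth: IGF2 is a growth factor, IGF2R removes it from the cell surface, GRB10 and the kinase inhibitor p57 (Cdkn1c) restrain growth, and PLAGL1 is a transcription factor tied to the same group. Others, such as Ndn, Snrpn, Ube3a, Nnat and Peg3, are best known from neurons. The values here are totals for a gene in an inbred strain, so the parental copies could not be told apart and imprinting itself was not measured.

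The libraries held between 19606579 and 39679496 reads assigned to genes, and the 2 mitochondrial rRNA genes took between 17.8 and 61.1% of them. The shares were highest in donors M5 and F7. All 15 sensory neuron markers were above the filter and had reads in every library, whereas none of 7 spinal cord markers reached it. In bulk ganglia, fewer cells of a type and less RNA per cell cannot be told apart. The embryos were separate animals, but their litters are not given in the sources used here.

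Imprinted genes covered nearly the whole range of expression in embryonic DRG. Among the 29049 genes with a value, 6 of the 38 stood in the top 1% and 16 in the top 10% by mean log2 RPKM, and 5 in the lower 50%. H19, a non-coding RNA transcribed from the maternal copy, ranked 28th with a mean level of 470.3 RPKM, and Igf2, its neighbor, ranked 35th with 389 RPKM. Mest, a hydrolase-fold protein, Snrpn, a splicing protein of neurons, Gnas, the stimulatory G protein subunit, and Nnat, neuronatin, followed with mean levels of 125, 112, 87.1 and 78.0 RPKM. At the other end, Calcr, the calcitonin receptor, had a mean level of 0.0575 RPKM with no read in 3 of 20 libraries, and Phlda2, a placental growth gene, was at 0 in 7 libraries. These 2 genes, Ddc, Peg12 and Asb4 were too low for a comparison at this depth. The median of the 33 tested genes was 3.34 on the log2 RPKM scale, against 1.995 for all 14529 genes tested.

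**Figure D1:**
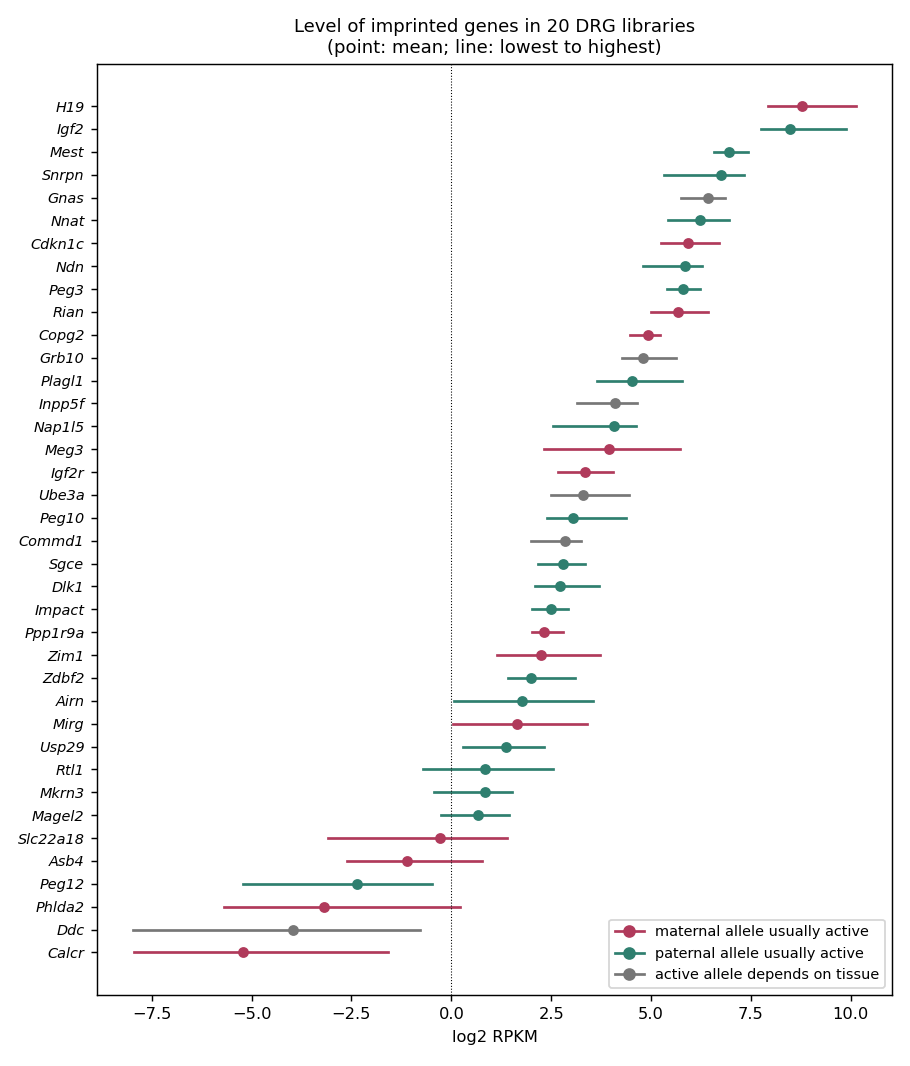
Level of each of the 38 matched imprinted genes on the log2 RPKM axis, with the mean over 20 libraries as a point and the lowest to highest library as a line, colored by the parental copy that is usually active. H19 and Igf2 stand highest, with means of 8.77 and 8.49, and Calcr lowest with -5.22.

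Between spinal levels, 4 imprinted genes were higher in sacral ganglia and 2 were lower. Igf2, H19, Cdkn1c and Grb10 rose in sacral ganglia by 0.43 to 0.71 on the log2 scale, and Nap1l5 and Inpp5f fell by 0.45 and 0.35. The 6 genes were 18.2% of the 33 tested, whereas 6.73% of all genes passed the same test (limma with the donor as a block, adjusted p at most 0.05). By direction, the 4 higher genes were 12.1% of the 33 against 2.7% of all genes, and the 2 lower genes 6.06% against 4.03%. The median difference of the 33 genes was 0.059, and that of all genes was -0.048. In at least 9 of 10 donors the same direction was found for 9 genes (H19, Igf2, Igf2r, Cdkn1c, Grb10, Plagl1, Peg10, Nap1l5 and Inpp5f), or 27.3% against 12.1% of all genes. None moved the same way in 10 of 10 donors, against 2.85% of all genes.

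**Figure D2:**
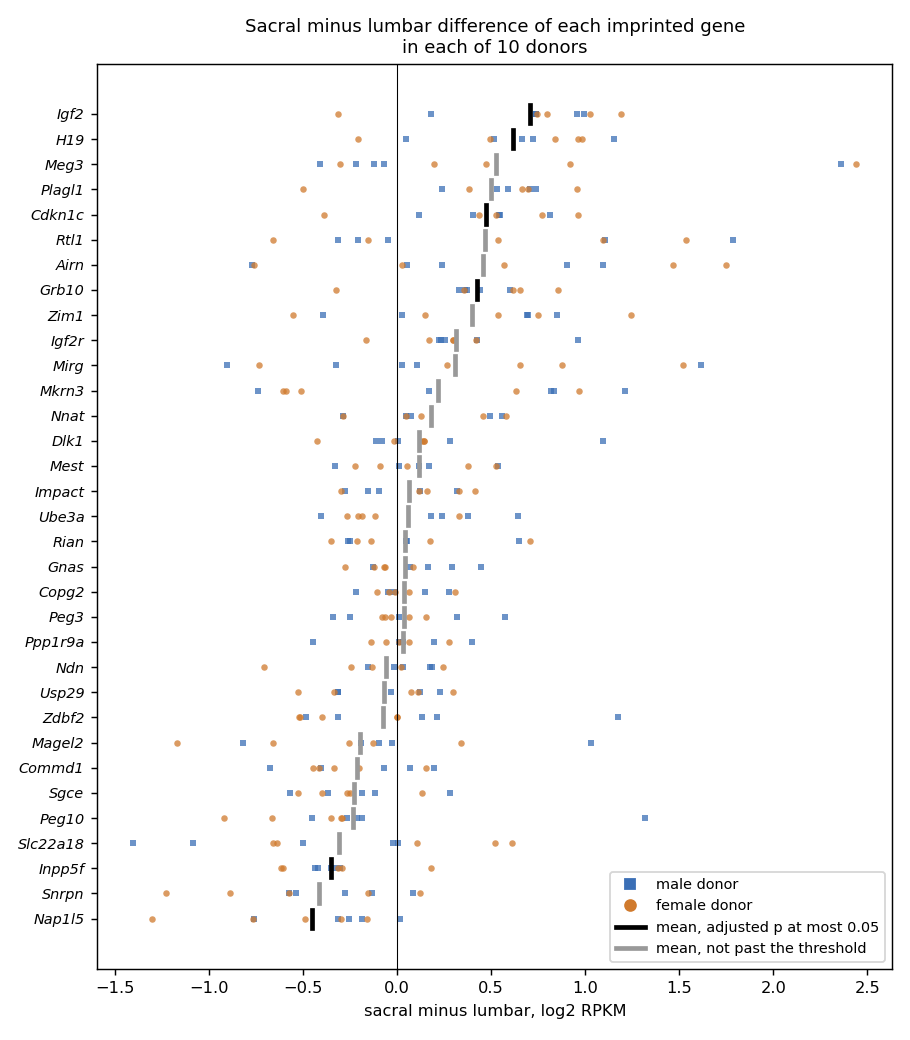
Sacral minus lumbar difference in log2 RPKM for the 33 tested genes, ordered by size, with 1 point for each of 10 donors (squares, male; circles, female) and a vertical bar for the mean, black where the adjusted p was at most 0.05. Igf2 is at the top with a mean of 0.71 and Nap1l5 at the bottom with -0.45.

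Grouped by the parental copy that is usually active, 9 of 10 maternally expressed genes had a higher mean in sacral DRG, with a median difference of 0.31, and 2 of them (H19 and Cdkn1c) passed the threshold. Of 18 paternally expressed genes, 10 were positive and 8 negative, with a median of 0.05, and Igf2 passed in the higher and Nap1l5 in the lower direction. The 5 genes whose active copy depends on tissue had a median of 0.04, with Grb10 called higher and Inpp5f lower. Of all 14529 genes tested, 6108 were positive and 8421 negative, with 2.7% called higher and 4.03% lower. Among the 9 maternally expressed genes, Ppp1r9a, Copg2 and Rian differed by only 0.03 to 0.04. These counts are a description, since genes of 1 locus are not independent.

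The 4 higher genes are all tied to fetal growth. Igf2 encodes the main fetal growth factor of the insulin family and lies at chr7:149836673-149852721 on the minus strand (mm9). Its level in lumbar libraries ran from 7.75 through a median of 8.002 to 9.08 log2 RPKM, and in sacral libraries from 8.18 through 8.78 to 9.87. The ranges overlapped, but the sacral library was the higher one in 9 of 10 donors, by 0.18 (M7) to 1.19 (F10), and in F8 it was lower by 0.31. The difference was 0.71 ± 0.15 (SE, 10 donors), or 1.63-fold, with an adjusted p of 0.00795 by limma. Igf2 was the only 1 of the 6 genes that stayed past the threshold whichever donor was left out, with adjusted p up to 0.0354.

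H19 is transcribed from the other parental copy of the same region, at chr7:149761434-149764048 on the minus strand, and competes with Igf2 for shared enhancers. Its lumbar values ran from 7.92 through 8.39 to 9.18 log2 RPKM and its sacral values from 8.22 through 9.06 to 10.14. Again only F8 went the other way, by -0.21, and M7 barely moved, by 0.05. The difference was 0.62 ± 0.14 (SE), or 1.53-fold (adjusted p = 0.0143, limma). The call was lost without M1 or F10, where the difference was 0.55 and 0.57. H19 is also the host of a microRNA. The hairpin of miR-675 matched the mm9 genome at chr7:149762969-149763052, inside an exon of H19, and that of miR-483 at chr7:149840829-149840901, inside an intron of Igf2. Small RNA was not measured, and the mature sequences from RefSeq (GRCm38.p6) are shown because their precursors lie in the transcripts that rose, with the seed, bases 2 to 8, in capitals.
mmu-miR-675-5p: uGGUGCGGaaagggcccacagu
mmu-miR-675-3p: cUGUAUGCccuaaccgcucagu
mmu-miR-483-5p: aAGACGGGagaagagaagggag
mmu-miR-483-3p: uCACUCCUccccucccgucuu
No seed was shared between these 4 sequences.

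Cdkn1c encodes p57, an inhibitor of cyclin-dependent kinases that takes cells out of the cycle (chr7:150644255-150646955, minus strand). It ran from 5.24 through 5.62 to 6.42 log2 RPKM in lumbar and from 5.79 through 6.07 to 6.71 in sacral libraries, higher in sacral in 9 of 10 donors. The highest lumbar value was that of F8, which fell by 0.39 in sacral ganglia. The difference was 0.47 ± 0.12 (SE), 1.39-fold, with an adjusted p of 0.0218 (limma), and it passed in 6 of 10 fits that left out a donor. The call was lost without M5, M8, F7 or F10, with differences of 0.41 to 0.58 over the 10 fits.

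Grb10, an adaptor that binds insulin and IGF1 receptors and dampens their signal (chr11:11830511-11938686, minus strand), ran from 4.28 through 4.51 to 5.31 log2 RPKM in lumbar libraries. In sacral libraries it ran from 4.71 through 4.98 to 5.63. The 9 donors that rose did so by 0.33 to 0.86, and F8 fell by 0.32. The difference was 0.43 ± 0.11 (SE), 1.34-fold (adjusted p = 0.0225, limma). The call was lost without M5, F9 or F10, with differences of 0.37 to 0.52 over the fits that left out a donor.

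**Figure D3:**
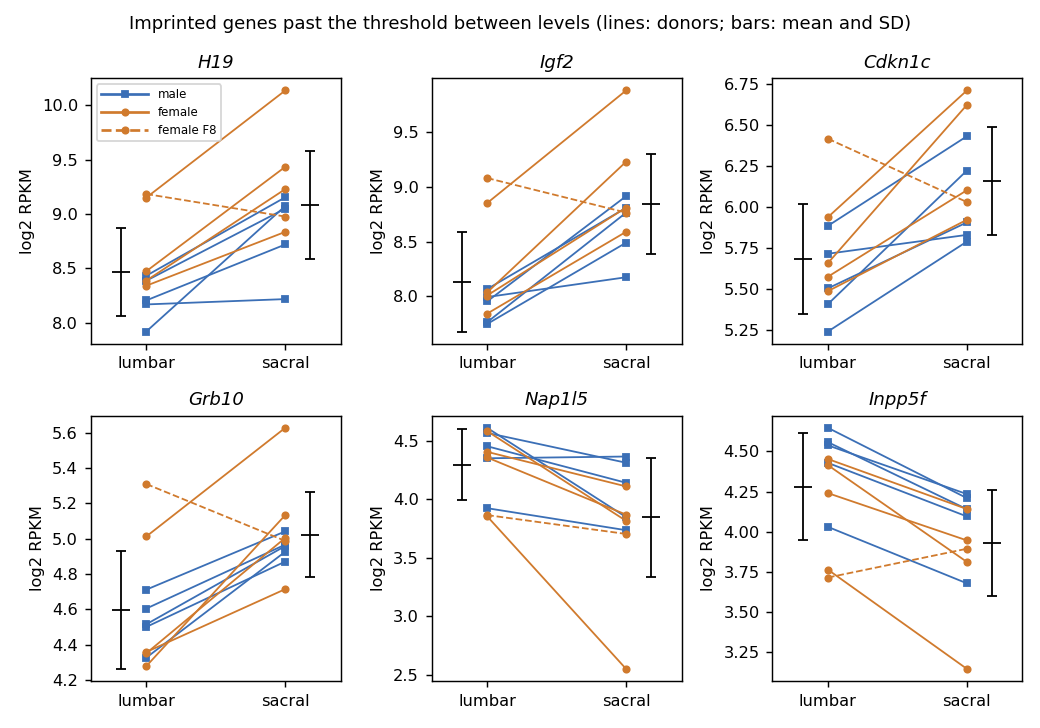
Log2 RPKM of the 6 imprinted genes past the threshold in lumbar and sacral ganglia, with 1 line per donor (blue squares, male; orange circles, female; dashed, donor F8) and the mean ± SD of 10 libraries beside each level. F8 runs against the other donors in every panel but that of Nap1l5, where M3 is the exception at 0.02.

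Plagl1 and Igf2r were also higher in sacral DRG in 9 of 10 donors but did not pass the threshold. Plagl1, a zinc finger activator (chr10:12810497-12851500, plus strand), differed by 0.50 ± 0.16 (SE), with an adjusted p of 0.055 (limma), and ran from 3.65 through 4.19 to 5.35 in lumbar and from 4.01 through 4.74 to 5.78 log2 RPKM in sacral libraries. Igf2r (chr17:12875272-12962530, minus strand) differed by 0.31 ± 0.10 (adjusted p = 0.0741), from 2.68 through 3.15 to 3.74 in lumbar and from 2.94 through 3.54 to 4.04 in sacral libraries. F8 was the exception for both. Under 24 other settings, fits without 1 donor among them, Plagl1 passed in 6 and Igf2r in 5. Airn, the antisense RNA that silences Igf2r on the paternal copy, differed by 0.46 ± 0.30 (adjusted p = 0.358) and was higher in 8 of 10 donors.

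Connective tissue markers moved with these genes. Of 13 fibroblast and meninges markers, 7 were called higher in sacral ganglia and none lower, namely Col1a1, Col1a2, Pdgfra, Fn1, Twist1, Foxc1 and Ogn, by 0.50 to 1.09 on the log2 scale, with a median over the 13 of 0.51. Their summed level ran from 297 through 386 to 657 RPKM in lumbar libraries and from 410 through 512 to 866 in sacral libraries, and none of the 13 was at 0 in any library. It was higher in sacral ganglia in 9 of 10 donors. The exception was F8, with 657 RPKM in lumbar and 517 in sacral ganglia, the same donor in which Igf2, H19, Cdkn1c, Grb10, Plagl1 and Igf2r were lower in sacral ganglia. The lumbar library of F8 also stood apart in other lists. Its muscle markers summed to 734 RPKM and its erythroid markers to 344, against lumbar medians of 86.1 and 116. Its summed sensory neuron level, 1300 RPKM, was the lowest of the lumbar libraries and rose to 1460 in sacral ganglia. F8 was the only donor in which that sum rose. With the mean of the fibroblast and meninges markers as a covariate, a choice made after seeing the data, none of the 33 imprinted genes passed, and 75 of all genes did against 978. The difference was then 0.17 for Igf2 and 0.18 for H19 (adjusted p = 0.615 and 0.657, limma), and 0.02 for Cdkn1c and 0.03 for Grb10 (adjusted p = 0.945 and 0.923). The markers themselves differed between levels, so this fit could not tell level and these cells apart. The part of these cells in the differences was not tested further. Of 5 cartilage markers tested, Col2a1 and Col11a1 rose by 0.80 and 0.76. Among Schwann and satellite glia markers, Fabp7, Mbp, S100b and Egr2 fell by 0.40 to 1.10, and of 15 sensory neuron markers Snap25, Nefl and Nefm fell by 0.60 to 1.14. Cdh5 of 4 endothelial markers rose by 0.46 and Mrc1 of 5 macrophage markers by 0.62, and no muscle, erythroid or proliferation marker was called. Beside these lists, 2.7% of all genes were called higher in sacral ganglia and 4.03% lower.

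The promoters of called genes from RefSeq (GRCm38.p6, 250 bases before to 50 after a start site) are shown for 2 genes that rose (Igf2 and Grb10) and for both that fell, with 1 window per gene. Entries were found for 33 of the 39 genes, in 52 start sites. Capitals mark the GC box, GGGCGG on either strand, which binds SP1-type factors. This motif stood in 24 of the 52 windows, belonging to 19 genes, and in 35.7% of all 32851 promoter windows of that length. GGGGCCCC was searched in the same way because it is the core described for PLAGL1. It was in 3 of the 52 windows, belonging to 3 genes, and in 1.1% of all windows. None of the windows shown here held it. Whether windows of neighboring genes overlap was not examined. The median number of CpG sites was 13.5 in the 52 windows and 7.0 in all. The window of Igf2, the third of 4 in the table (chr7:142658755-142659054, minus strand), held 24 CpG sites, that of Grb10 (chr11:12037371-12037670, minus strand, the first of 2) 45, that of Nap1l5 (chr6:58907077-58907376, minus strand) 17 and that of Inpp5f (chr7:128611115-128611414, plus strand) 15.
Igf2: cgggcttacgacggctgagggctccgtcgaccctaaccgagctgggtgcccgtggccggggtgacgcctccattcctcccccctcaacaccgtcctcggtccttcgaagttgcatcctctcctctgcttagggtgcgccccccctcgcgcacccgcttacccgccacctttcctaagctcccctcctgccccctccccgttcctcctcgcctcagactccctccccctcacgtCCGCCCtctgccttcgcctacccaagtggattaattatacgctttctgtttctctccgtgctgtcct
Grb10: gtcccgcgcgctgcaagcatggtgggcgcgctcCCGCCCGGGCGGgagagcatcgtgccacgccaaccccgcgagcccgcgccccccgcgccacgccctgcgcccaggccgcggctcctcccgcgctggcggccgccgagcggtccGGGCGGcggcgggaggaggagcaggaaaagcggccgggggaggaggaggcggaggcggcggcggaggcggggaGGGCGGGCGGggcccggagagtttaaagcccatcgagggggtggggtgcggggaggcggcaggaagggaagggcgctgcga
Nap1l5: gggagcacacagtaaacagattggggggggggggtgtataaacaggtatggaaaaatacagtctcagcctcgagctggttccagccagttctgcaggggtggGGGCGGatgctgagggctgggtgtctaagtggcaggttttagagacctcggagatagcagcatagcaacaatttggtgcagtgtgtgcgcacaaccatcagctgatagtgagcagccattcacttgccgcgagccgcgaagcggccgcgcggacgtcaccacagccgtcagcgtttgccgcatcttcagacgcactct
Inpp5f: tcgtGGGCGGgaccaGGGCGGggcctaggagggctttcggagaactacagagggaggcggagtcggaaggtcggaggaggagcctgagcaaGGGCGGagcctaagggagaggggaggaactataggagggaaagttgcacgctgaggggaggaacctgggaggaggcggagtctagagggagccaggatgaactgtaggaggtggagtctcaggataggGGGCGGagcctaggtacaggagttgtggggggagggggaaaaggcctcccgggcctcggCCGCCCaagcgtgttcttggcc
The Igf2 and Nap1l5 windows held 1 GC box each, and the Grb10 and Inpp5f windows 5 each. The other 3 Igf2 windows held 0, 0 and 2 GC boxes and the other Grb10 window 0. H19 and Cdkn1c, the other two genes that rose, were not among the entries matched.

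Nap1l5 and Inpp5f were lower in sacral DRG. Nap1l5 is a nucleosome assembly protein gene without introns that lies inside another gene (chr6:58855228-58857120, minus strand) and is expressed in brain. Its lumbar values ran from 3.86 through 4.38 to 4.61 log2 RPKM and its sacral values from 2.55 through 3.86 to 4.36. The difference of -0.45 ± 0.13 (SE, adjusted p = 0.0437, limma) had the same direction in 9 of 10 donors, and the F7 pair, at -1.30, lay farthest from the rest. Inpp5f, a phosphoinositide phosphatase (chr7:135754842-135839939, plus strand), ran from 3.72 through 4.42 to 4.65 in lumbar and from 3.15 through 4.02 to 4.24 log2 RPKM in sacral libraries. It differed by -0.35 ± 0.10 (adjusted p = 0.0459), and F8 was its exception at 0.18. Leaving out a donor kept Nap1l5 past the threshold in 2 of 10 fits and Inpp5f in 1 of 10. Both calls were lost when values were scaled to the reads outside mitochondrial rRNA, with differences of -0.39 and -0.28. Snrpn, lower in 8 of 10 donors, differed by -0.41 ± 0.15 (adjusted p = 0.0922), from 6.42 through 7.11 to 7.34 in lumbar and from 5.33 through 6.62 to 7.01 log2 RPKM in sacral libraries.

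The other loci gave no call between levels in the main fit. In the Dlk1-Meg3 region of chromosome 12, all 5 tested genes had positive mean differences, but with wide scatter. Meg3, a non-coding RNA of the maternal copy, ran from 2.33 through 3.23 to 5.47 log2 RPKM in lumbar and from 2.63 through 4.80 to 5.73 in sacral libraries, and its difference of 0.53 ± 0.36 (adjusted p = 0.374) came from 5 donors that rose, 2 of them by 2.36 (M8) and 2.44 (F9), and 5 that did not. With the mitochondrial rRNA share as a covariate, Meg3 passed, with a difference of 0.47 (adjusted p = 0.0433, limma). Dlk1, the Notch-related protein of the paternal copy, differed by 0.12 ± 0.14 (adjusted p = 0.629), with a range over all libraries of 2.11 to 3.69. Rian, Mirg and Rtl1 differed by 0.04, 0.31 and 0.47 with adjusted p of 0.874, 0.534 and 0.370.

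Of the other genes, Ndn, Peg3, Nnat, Gnas and Mest did not pass the test. Ndn, a MAGE-family protein of neurons, differed by -0.06 ± 0.13 (adjusted p = 0.805) and ran from 5.31 to 6.20 in lumbar and from 4.79 to 6.27 log2 RPKM in sacral libraries. Peg3, a zinc finger protein, differed by 0.04 ± 0.09 (adjusted p = 0.829) and stayed between 5.39 and 6.22. Nnat differed by 0.18 ± 0.11 (adjusted p = 0.313) and ran from 5.43 to 6.75 in lumbar and from 5.50 to 6.94 in sacral libraries. Gnas and Mest differed by 0.04 ± 0.10 (adjusted p = 0.823) and 0.12 ± 0.10 (adjusted p = 0.478), with lowest to highest values of 5.75 to 6.85 and 6.58 to 7.43. The rest (Usp29, Zim1, Peg10, Sgce, Ppp1r9a, Copg2, Slc22a18, Magel2, Mkrn3, Ube3a, Impact, Zdbf2 and Commd1) lay between -0.31 (Slc22a18) and 0.40 (Zim1), with adjusted p from 0.201 to 0.829.

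Between the sexes, 1 imprinted gene differed, and it did so at both levels. Ube3a, the ubiquitin ligase whose maternal copy alone is active in mature neurons (chr7:66484122-66562097, plus strand), was higher in male embryos. In lumbar ganglia the males had 3.601 (M1), 4.003 (M3), 3.08 (M5), 4.08 (M7) and 4.08 (M8) log2 RPKM, and the females 2.99 (F3), 2.62 (F7), 2.53 (F8), 2.84 (F9) and 2.92 (F10). In sacral ganglia the males had 3.84, 4.19, 3.72, 4.46 and 3.68 and the females 2.78, 2.50, 2.86, 2.58 and 2.73 in the same order. The sexes did not overlap at either level, and M5 was the only male near the females, in lumbar ganglia. Female minus male, the difference was -0.99 in lumbar (adjusted p = 0.0146, limma) and -1.29 in sacral ganglia (adjusted p = 0.000838), or 1.99-fold and 2.44-fold higher in males. It was 1 of 33 genes, or 3.03%, at each level, against 0.33% of all genes in lumbar and 1.01% in sacral ganglia.

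The sacral call for Ube3a held whichever donor was left out, with adjusted p up to 0.00789, and the lumbar call in 4 of 10 such fits, lost without M3, M7, M8, F7, F8 or F9. Of its 5097 exon bases, 3.71% matched another place in the mm9 genome at 95% identity or more over 100 bases. An antisense RNA of this locus is known from neurons, and whether the counting used strand is not given in the sources used here, so sense and antisense reads could not be told apart. The 300-base promoter window of Ube3a (GRCm38.p6, chr7:59228500-59228799, plus strand) is given because this gene carried the sex difference. It held 29 CpG sites and 2 GC boxes, in capitals.
Ube3a: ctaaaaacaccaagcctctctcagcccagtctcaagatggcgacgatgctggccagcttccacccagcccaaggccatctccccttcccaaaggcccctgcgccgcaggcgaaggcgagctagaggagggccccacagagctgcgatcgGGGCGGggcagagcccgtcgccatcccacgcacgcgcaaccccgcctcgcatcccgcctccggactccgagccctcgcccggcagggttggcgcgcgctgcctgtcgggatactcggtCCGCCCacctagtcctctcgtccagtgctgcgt

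Nnat, a small membrane protein of developing neurons, also did not overlap between sexes in lumbar ganglia, with males at 5.86, 5.89, 5.43, 5.99 and 6.09 and females at 6.21, 6.20, 6.49, 6.75 and 6.48 log2 RPKM. Its female minus male difference was 0.58 in both lumbar and sacral ganglia but missed the threshold (adjusted p = 0.319 and 0.150, limma). In sacral ganglia the highest males, M1 at 6.42 and M3 at 6.38, reached the female range. Without overlap were 2 of the 33 genes in lumbar ganglia (6.06%, against 2.19% of all genes) and 1 in sacral ganglia (3.03%, against 3.96%). With the mitochondrial rRNA share as a covariate, Nnat passed at both levels (adjusted p = 0.0377 and 0.0138, limma) and Meg3 in sacral ganglia (0.74 higher in females, adjusted p = 0.0493). Over all genes, the sex calls then rose from 48 to 228 in lumbar and from 147 to 705 in sacral ganglia.

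**Figure D4:**
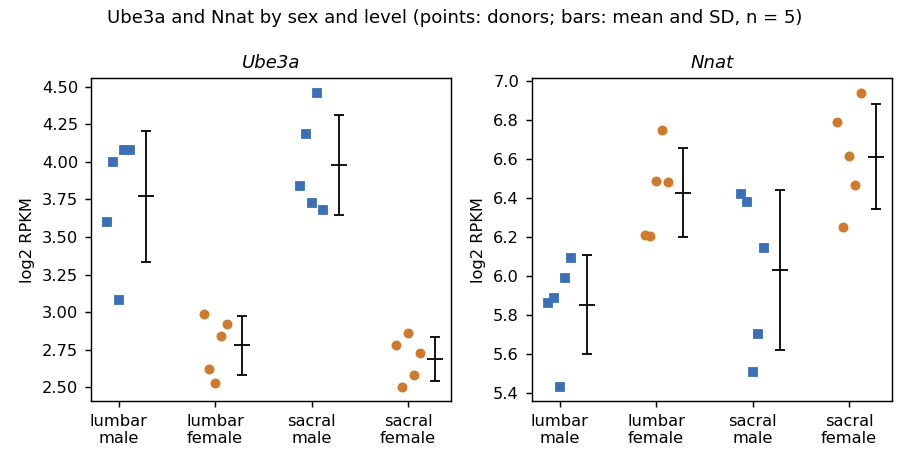
Log2 RPKM of Ube3a and Nnat in the 4 groups, with 1 point per donor and the mean ± SD of 5 donors beside it. Ube3a of males lies above that of females at both levels, from 3.08 upward against 2.99 downward, and Nnat of females lies above that of males in lumbar ganglia.

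The effect of level was not found to differ between sexes for any imprinted gene. The interaction was called for 0.0% of all genes by limma, and at an unadjusted p under 0.05 it held for 3.23% of all genes and for 0 of the 33. The level difference of Igf2 was 0.72 in males and 0.69 in females, that of H19 0.62 and 0.61, that of Cdkn1c 0.48 and 0.46, that of Grb10 0.42 and 0.43, and that of Inpp5f -0.37 and -0.33. Nap1l5 differed by -0.30 in males and -0.60 in females (unadjusted p of the interaction 0.265, adjusted p = 0.995, limma), and Peg10, named after its values were seen, by 0.04 and -0.50 (unadjusted p 0.108, adjusted p = 0.995). Neither sex alone brought any of the 6 genes past the threshold, with adjusted p from 0.111 to 0.566.

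Several imprinted RNAs followed the mitochondrial rRNA share of a library. With this share in the fit, 18 of the 33 genes had a slope past the threshold (54.5%, against 52.6% of all genes), 9 positive (27.3%, against 16.3%) and 9 negative (27.3%, against 36.3%). Meg3 rose by 0.86 on the log2 scale per 10 percentage points (adjusted p = 5.5e-08, limma), and Rtl1, Airn, Mirg, Zim1, Rian, Plagl1, Igf2 and H19 by 0.18 to 0.68. Gnas, Nnat, Ndn, Snrpn, Ube3a, Nap1l5, Inpp5f, Sgce and Usp29 fell by 0.16 to 0.27. M5 and F7, with the highest shares, had lumbar Meg3 levels of 5.47 and 5.25 against 2.33 to 4.80 in the other lumbar libraries. Without both donors, Igf2 was the only imprinted gene past the threshold between levels, and 261 of all genes passed against 978. With the share as a covariate, 9 of the 33 genes passed between levels, and 1295 of all genes. These were the 6 genes called above, Meg3, Plagl1 and Snrpn. The part of the share in these levels was not tested beyond this slope.

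Coherence over libraries was described by the correlation between genes within each level. Over the 528 pairs of tested genes the median Pearson r was 0.122 in lumbar and 0.0103 in sacral libraries, beside 0.0563 and 0.0366 over all pairs of tested genes. The 30 pairs from the same locus had medians of 0.418 and 0.583. With the mitochondrial rRNA share removed, the medians were 0.185 and 0.0641 over the 528 pairs, 0.0295 and 0.0291 over all gene pairs, and 0.261 and 0.424 over the 30 pairs. For donor differences they were 0.0198, 0.0211 and 0.357. Of 8 pairs examined at each level (16 relations, permutation tests with 100000 resamples, two-sided, adjusted over the 16), H19 and Igf2 were the closest. Their r was 0.953 in lumbar (p = 0.00056, adjusted p = 0.00288) and 0.979 in sacral libraries (p = 2e-05, adjusted p = 0.00032, permutation), with Spearman's rho of 0.891 (p = 0.001) and 0.903 (p = 0.0007). Without the 2 libraries farthest from the median of H19, r was 0.71 and 0.918. The libraries share 1 normalization, and the connective tissue markers differed among them as given above.

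Igf2 and Plagl1 were related in lumbar (r = 0.929, rho = 0.842, adjusted p = 0.00288 for r, permutation) and sacral libraries (r = 0.759, rho = 0.758, adjusted p = 0.036), and without the 2 farthest libraries r was 0.638 and 0.531. Snrpn and Ndn, neighbors in the central chromosome 7 region, had r of 0.856 and 0.926 (rho 0.685 and 0.770, adjusted p = 0.00841 and 0.00288 for r, permutation), and 0.712 and 0.772 without the 2 farthest libraries. Meg3 and Rian had r of 0.894 and 0.826 and Rian and Mirg 0.776 and 0.706 (adjusted p from 0.0033 to 0.036, permutation). For donor differences, r was 0.898 for Meg3 and Rian and 0.721 for Rian and Mirg. With the mitochondrial rRNA share removed, the 4 values within levels were 0.0729, -0.0997, 0.0829 and -0.175, so these relations did not hold in that setting. Meg3 with Dlk1, of the same locus, went from 0.168 to 0.653 in lumbar and from -0.387 to 0.0743 in sacral libraries. Snrpn and Ndn had 0.414 and 0.840, Igf2 and Plagl1 0.896 and 0.599, and H19 and Igf2 0.934 and 0.968. By rank, Snrpn with Ndn in lumbar (adjusted p = 0.0618 for rho, permutation), Meg3 with Rian in sacral (0.0603) and Rian with Mirg in lumbar (0.0876) and sacral libraries (0.0603) did not pass the threshold. Meg3 with Dlk1, Peg3 with Usp29 and Sgce with Peg10 were not past the threshold at either level, with adjusted p from 0.137 to 0.979.

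**Figure D5:**
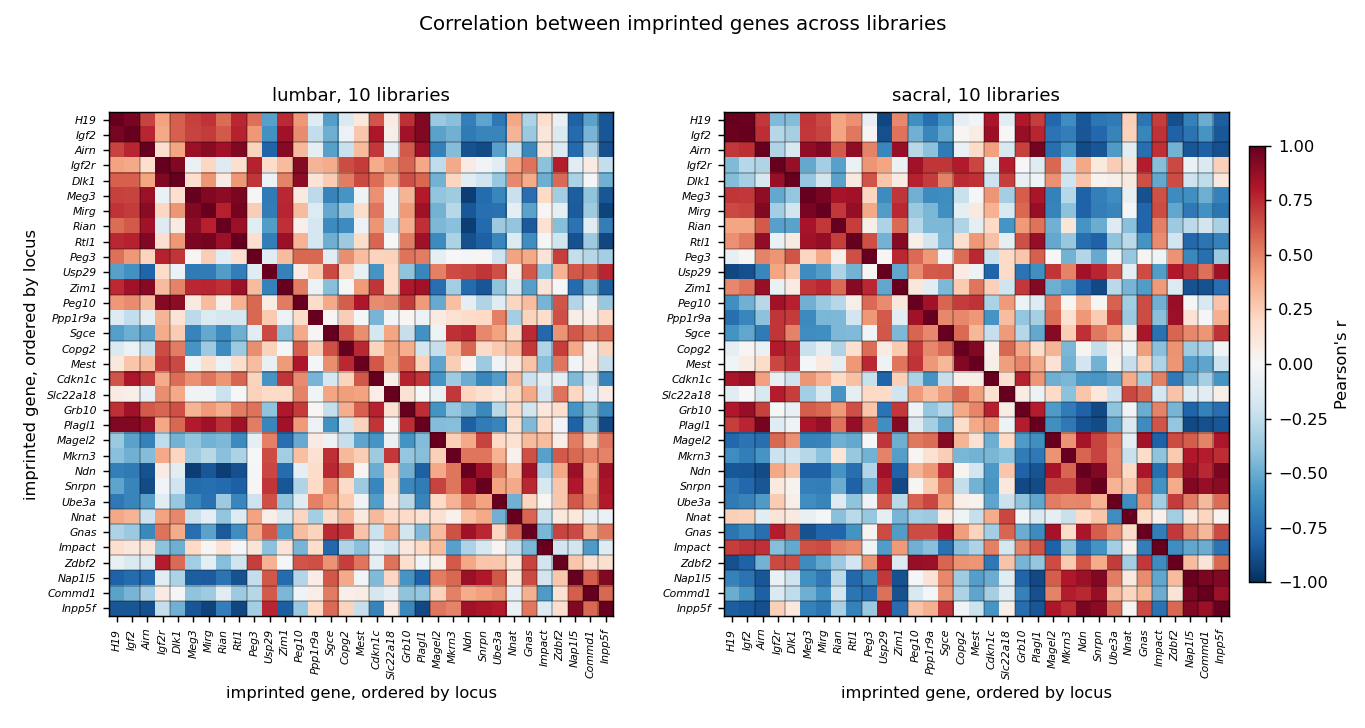
Pearson's r between the 33 tested imprinted genes across 10 lumbar and across 10 sacral libraries, ordered by locus, with lines between loci and a color scale from -1 (blue) to 1 (red). H19 with Igf2 and the Meg3, Mirg, Rian and Rtl1 block are red at both levels, and H19 and Igf2 are blue against Ndn, Nap1l5 and Inpp5f.

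Other lists hold genes around this set. Of 26 further imprinted genes tested, 2 passed between levels, beside 6.73% of all genes, and the median difference of the 26 was -0.02. Slc38a4, an amino acid transporter, rose by 0.86 in sacral DRG (adjusted p = 0.00606, limma), from 1.38 through 2.65 to 4.90 RPKM in lumbar and from 3.38 through 5.05 to 7.24 RPKM in sacral libraries. Kcnk9, a potassium channel, fell in 10 of 10 donors (adjusted p = 0.000272), with 11 to 92 reads per lumbar and 0 to 12 per sacral library, 525 against 47 in total. Of 20 genes of the IGF axis and p57 partners, 1 was called higher and 1 lower, beside 2.7% and 4.03% of all genes. Igfbp4, which binds IGF proteins, rose by 0.46 (adjusted p = 0.0164, limma), and Ccnd1, cyclin D1, fell by 0.67 (adjusted p = 0.000314), in 10 of 10 donors. None of 13 imprint maintenance factors tested passed the threshold, with a median difference of 0.18.

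Some values are uncertain for reasons of counting. Mest and Copg2 share 904 exon bases on opposite strands, Gnas shares 988 with Nespas and 1469 with AF085738, Meg3 1228 with Gm17639, and Commd1 2449 with B3gnt2 on the same strand. Of the exon bases of Snrpn, 37.3% matched chromosome 14 at 95% identity or more, and 21.1% of those of Rian matched chromosome X, while uniquely mapped reads alone were kept. H19, Igf2, Cdkn1c, Grb10 and Nap1l5 had no such match.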

How the data were processed

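Total RNA of each ganglion pair was amplified and sequenced. According to the methods of the study, the authors aligned reads to mm9 with Subread, kept uniquely mapped reads, counted them over Ensembl genes with featureCounts and deposited log2 RPKM values made with limma voom and TMM library sizes from edgeR. The deposited log2 values are blank where a gene had no read, and their median over genes was the same in each library. Reads were recovered from the value steps and the exon lengths of GENCODE M1 for 28326 of 29049 genes, with 98.3% of values whole within 0.05 reads, and give the depths in the text. Blanks were set to 0.5 reads.

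Genes with a group mean of log2 RPKM at or above that of 1 RPKM in at least 1 of 4 groups were tested with limma 3.58.1 in R 4.3.3 on log2 RPKM: 1 mean per group, trended empirical Bayes, two-sided, Benjamini-Hochberg over 14529 genes, threshold 0.05. A filter on the mean of linear RPKM had been run first and is given as an alternative. The choice of the main filter was made with the results of both known. Donor was a block (correlation 0.342), as in the study, since the labels give both libraries of an embryo 1 code. All 39 genes are accounted for, with values for called genes and for 13 growth and neuronal genes whatever their result. The genes, lists and tests were chosen with earlier results of these data known. The fitting code was tested on simulated data. Exons were compared with mm9 by blastn 2.17.0. Other settings were another filter, pseudocount, scaling, covariate, weights, variance moderation, voom on recovered reads, no block, and each donor left out. A gene of the marker lists is not reported here.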

Additional observations from a re-analysis of the deposited data

Results flagged for a closer look

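In each group of 5 libraries the highest and lowest value of every tested gene was compared with its nearest neighbor by Dixon's ratio, which chance exceeds in about 1 of 20 groups. It was exceeded in 9 of 132 groups (6.82%). Donor M5 accounted for 6 of the 9. Among lumbar males its library was the highest for Meg3, with 5.47 log2 RPKM against 3.06 for the next, and for Mirg, with 2.57 against 0.93. The same library was the lowest for Copg2 (4.48 against 4.94), Ndn (5.31 against 6.04) and Gnas (5.75 against 6.40). Its sacral library was the lowest among sacral males for Inpp5f, with 3.68 against 4.10. The lumbar M5 library had the highest mitochondrial rRNA share of all, 61.1%. In sacral females, F3 was the lowest for Rian (4.99 against 5.77) and had the lowest share of all, 17.8%, and F7 was the lowest for Nap1l5 (2.55 against 3.70). In sacral males, M7 was the highest for Mest, with 7.43 log2 RPKM against 6.94. The part of the mitochondrial rRNA share in these values was not tested beyond the slopes in the report.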

How the results depend on the processing

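Of 6 imprinted genes called between levels, 4 higher and 2 lower in sacral DRG, none was called without the replicate block (0 higher, 0 lower, with 154 of all genes called against 978), although the differences were the same. The block changed no sex call. Without a filter 2 were called (2 higher, 0 lower, 507 genes), and with array weights 10 (4 lower, 2998 genes). With the connective tissue markers as a covariate 0 were called (75 genes), and without donors M5 and F7 1, Igf2 (0 lower, 261 genes). Both of these were chosen after seeing the data. The filter on linear RPKM, which gave 6, had been run first, and the main filter was chosen with both results known. Scaled to reads outside mitochondrial rRNA, 0 were lower, and 59.0% of all called genes were higher in sacral DRG against 40.1%. Leaving out 1 donor gave 1 (F10) to 9 (F8) genes, 1 to 6 higher and 0 to 3 lower, with 401 to 1594 of all genes, and 1 to 3 genes without M1, M5, M8, F7 or F10. In lumbar DRG the sex difference of Ube3a was called in all other settings, and leaving out a donor gave 0 to 1 genes. With the mitochondrial rRNA share as a covariate 2 genes differed by sex in lumbar and 3 in sacral DRG, with 228 and 705 of all genes called. Over all genes, the sex calls were 48 in lumbar DRG and ran from 14 without M3 to 228 with that covariate, and 147 in sacral DRG, from 55 without M3 to 751 with array weights. The median r was 0.122 in lumbar libraries, 0.0198 for donor differences, 0.13 centered within sex and 0.185 with the mitochondrial rRNA share removed, and in sacral libraries 0.0103, 0.0198, 0.0115 and 0.0641. With the mitochondrial rRNA share removed, r in sacral libraries turned to -0.0997 for Meg3 and Rian and to -0.175 for Rian and Mirg. Of 3148 values of single genes under another setting, 209 changed sign, none of them past the threshold before or after, 67 lost and 19 gained a call. The cause of these changes was not tested. Genes under 1 RPKM, such as Calcr and Phlda2, could not be compared at this depth.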
